A study of Mus musculus with 31 samples.

Results

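YAP, encoded by Yap1, and TAZ, encoded by Wwtr1, are transcriptional co-activators that bind DNA through the TEAD factors, encoded by Tead1 to Tead4. Described here are these 6 genes and 4 of their textbook targets, Ctgf, Cyr61, Amotl2 and Ankrd1, in cells sorted from the newborn mouse pancreas. The 10 genes were taken by name from the 38283 genes of each deposited expression table, and all 10 were found, Ctgf and Cyr61 under these older symbols (the annotation calls them Ccn2 and Ccn1). A second row named Tead1, whose identifier is not in the annotation, held 0 to 1.78 FPKM and was left aside.

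When the Hippo pathway is active, the kinases MST1 and MST2 (Stk4 and Stk3) activate LATS1 and LATS2, which phosphorylate YAP and TAZ and keep them out of the nucleus. When it is inactive, YAP and TAZ enter the nucleus and activate growth and matrix genes with TEAD. The pathway reads cell contact, polarity and stiffness, and in the pancreas YAP has been linked to progenitor growth and to the balance of acinar, ductal and endocrine cells. Messenger RNA levels do not report the phosphorylation or location of the proteins.

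The study asked how Igf2 of the pancreatic mesenchyme, deleted or overexpressed there, affects the pancreas. All mice were C57BL/6 at postnatal day 2, and cells were sorted into YFP+ mesenchymal and YFP- non-mesenchymal fractions. Of 31 samples, 21 had values here. In the H19DMD model, controls were H19DMD+/+; Nkx3.2+/Cre (3 libraries of each fraction) and mutants H19DMDfl/+; Nkx3.2+/Cre (4 libraries of each fraction), H19DMD being the region that controls imprinting of the Igf2 and H19 domain. In the Igf2 model, controls were Igf2+/+; Nkx3.2Cre/+ (4 libraries) and mutants Igf2+/fl; Nkx3.2Cre/+ (3 libraries), both of non-mesenchymal cells. Not analysed here are 8 mesenchymal samples of the Igf2 model and 1 H19DMD control of each fraction. Every group, controls included, carries a Cre allele of Nkx3.2, a gene of the pancreatic mesenchyme, so the effect of that allele itself is shared by mutants and controls. The labels do not say whether a library came from 1 animal or a pool, so p-values measure the spread between these libraries.

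Values are FPKM, fragments scaled to transcript length and library size, which allow levels of different genes to be set side by side. Absolute depth is unknown. Relative depth is an estimate from genes of low FPKM, 249 or more in a library, and not a count of reads. It spanned 2.36-fold over the H19DMD libraries and 2.53-fold over the Igf2 libraries. In a library 17476 to 20918 genes were above 0, and the 3 highest entries held 38.2 to 82.5% of summed FPKM. The library names of each model share a prefix of their own in the labels, and each model has its own table, so that any difference of handling or processing and the model cannot be told apart, and tests stayed within a table. The 12 mesenchymal markers had a summed level of 6351 to 7442 FPKM in the mesenchymal fraction of controls and of 170 to 208 FPKM in the other fraction, where Nkx3-2 and Barx1 were listed at 0. Nkx3-2 itself reached only 0 to 0.886 FPKM in the mesenchymal controls. H19 averaged 2446 ± 8.1 FPKM (SD, n = 3) in mesenchymal controls and 700 ± 123 (SD, n = 4) in mesenchymal mutants (limma, adjusted p = 0.0458), and Igf2 3849 ± 190 and 7040 ± 800 FPKM, without overlap between groups (adjusted p = 0.927). In non-mesenchymal cells Igf2 was 48.2 ± 4.4 and 108 ± 50.9 FPKM in controls and mutants of the H19DMD model and 93.5 ± 33.8 and 78.9 ± 61.9 FPKM in those of the Igf2 model, with adjusted p of 0.894 and 0.924.

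The TEAD core is the motif that the family binds, and it stood near the start of several of these genes. RefSeq promoter windows (GRCm38.p6) were given for 7 of the 10 genes, in 10 windows, and the 250 bases before each start were searched. The core GGAATG or its reverse complement CATTCC was present in 8 of the 10 windows, against 12.6% of all 32841 windows of this length. By gene it was present in 6 of the 7, for which no share over all genes was computed. Windows of Wwtr1 and of Tead3 overlap in part, and a match is a description of letters, not evidence of binding. Cyr61 is shown whole because it was the most abundant target, on the minus strand at chr3:145649986-145650235, with the TEAD core and a TATAAA box in capitals.

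Cyr61: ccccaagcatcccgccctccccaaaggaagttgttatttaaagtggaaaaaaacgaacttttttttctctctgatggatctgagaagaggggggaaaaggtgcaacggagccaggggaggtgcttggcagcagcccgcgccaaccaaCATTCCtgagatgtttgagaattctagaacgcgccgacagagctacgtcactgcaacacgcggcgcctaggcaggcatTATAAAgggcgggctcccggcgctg

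The core in Cyr61 began 103 bases before the start and the TATAAA box 25 bases before it. Cyr61 was the only one of the 7 genes with TATAAA on the gene's strand, which 7.59% of all windows held. The AP-1 motif TGANTCA (either strand) was in none of the 10 windows and in 6.75% of all windows, and the CArG box, the motif of serum response factor, in none and in 1.47%. The 30 bases around the core in the other targets and in the co-activators are set out for comparison, each on its gene's strand with the core in capitals.

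Amotl2, chr9:102717727-102717756, plus strand: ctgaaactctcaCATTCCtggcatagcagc
Ankrd1, chr19:36120037-36120066, minus strand: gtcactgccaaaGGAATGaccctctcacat
Ankrd1, chr19:36119950-36119979, minus strand: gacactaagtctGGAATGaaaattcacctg
Yap1, chr9:8004720-8004749, minus strand: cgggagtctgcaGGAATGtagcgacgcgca
Wwtr1, chr3:57576029-57576058, minus strand: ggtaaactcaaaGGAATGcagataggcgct

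Amotl2 had its core 65 bases before the RefSeq start and Ankrd1 had cores 210 and 123 bases before it. The annotation (GENCODE M21) holds longer transcripts of both genes, and all 30 bases of each of these 3 sites lie in an annotated exon of the same gene, so they are not upstream of every start. Yap1 and Wwtr1, the co-activators themselves, held a core 141 and 136 bases before a start, and these sites, like that of Cyr61, touch no annotated exon. Tead3 held 3 cores in its windows, 2 of them in its own exons, and Tead2 held none.

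In the H19DMD model, the 2 co-activators and Tead1 and Tead3 were higher in mesenchymal than in non-mesenchymal cells, by 1.85 to 3.99-fold, in controls and again in the separate libraries of mutants. The 4 targets had no such difference. Ankrd1 was at or near 0 in mesenchymal cells of both sets and lower there than in the other fraction. Cyr61 and Ctgf had lower mesenchymal means in both sets and passed in mutants only. In mutants the call of Ctgf was lost in 7 of 8 fits without 1 library. Amotl2 passed in neither set. Of the 10 genes, 5 passed the threshold in controls (4 higher, 1 lower), where 22.6% of all genes tested did (12.4% higher and 10.3% lower). The 1 lower gene was Ankrd1, which passed the filter on low values only through the non-mesenchymal group. The filter thus favours a difference, and the call of Ankrd1 is not counted as support in either set. Without mesenchymal replicate 3 or without non-mesenchymal replicate 2, only 3 passed in controls (Wwtr1, Tead1 and Ankrd1). In mutants 7 of 10 passed (4 higher, 3 lower), where 28.6% of all genes did (13.5% higher and 15.1% lower). The fractions did not overlap for 5 of 10 genes in controls (39.9% of all genes) and 6 of 10 in mutants (31.0%).

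**Figure D1:**
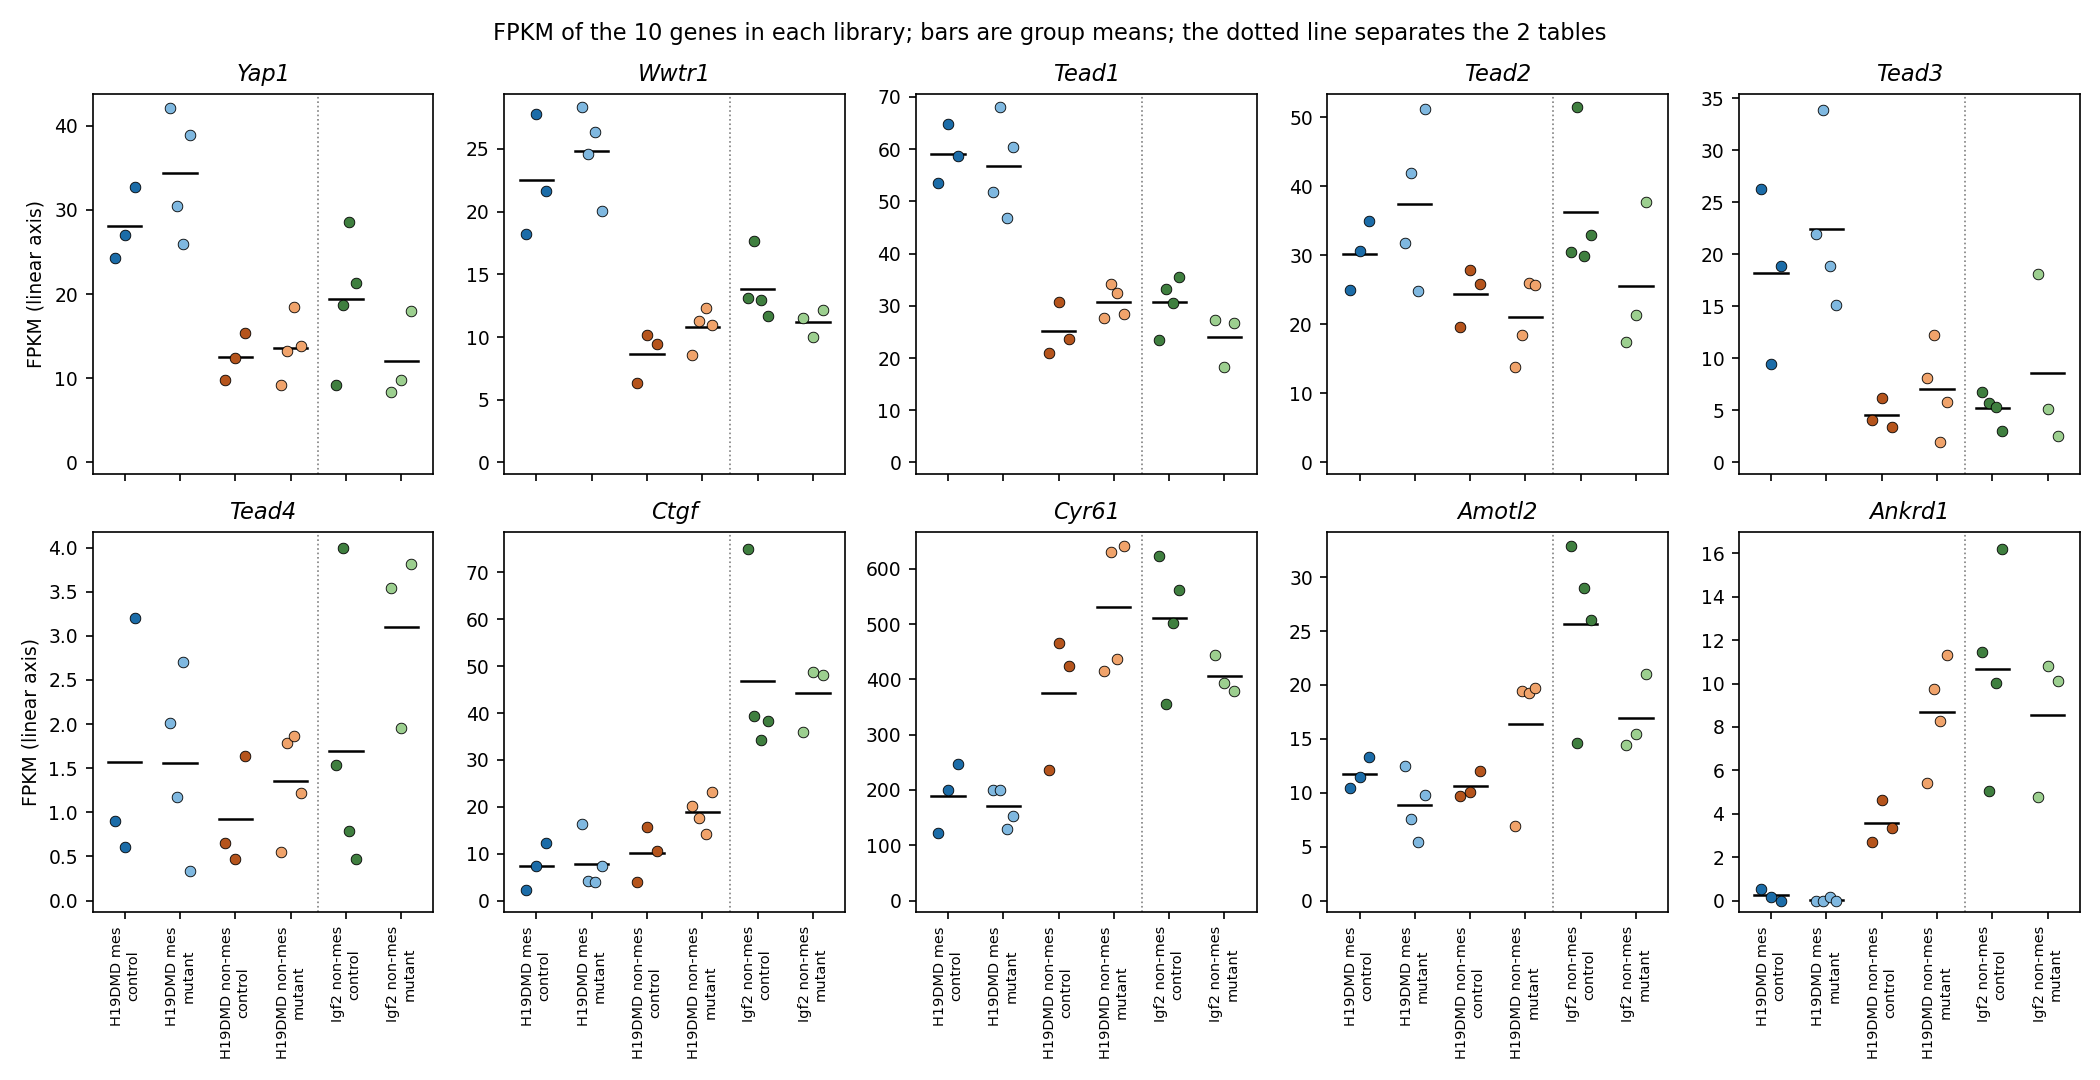
FPKM (linear axis, a separate scale for each gene) of the 10 genes in every library, by group (mes, mesenchymal; non-mes, non-mesenchymal), with bars at group means and a dotted line between the 2 tables. Yap1, Wwtr1 and Tead1 sit higher in the 7 mesenchymal than in the 7 non-mesenchymal H19DMD libraries, and Ankrd1 is at or under 0.54 FPKM in all 7 mesenchymal ones.

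Yap1 (ENSMUSG00000053110, chr9:7931999-8004596, minus strand; all coordinates are GRCm38) was read at 24.3, 27.0 and 32.8 FPKM in mesenchymal controls and at 9.77, 12.4 and 15.4 FPKM in non-mesenchymal controls. In mutants it was 42.1, 30.5, 25.9 and 38.9 FPKM in mesenchymal and 9.17, 13.2, 18.4 and 13.8 FPKM in non-mesenchymal cells. All 7 mesenchymal libraries lay above all 7 non-mesenchymal ones of this model, and controls and mutants overlapped within each fraction. The mean was 2.24-fold higher in mesenchymal controls (log2 difference 1.11, SE 0.22, adjusted p = 0.0169) and 2.52-fold in mutants (1.28, SE 0.24, adjusted p = 0.00474). The call in controls was lost without mesenchymal replicate 2 or 3 or non-mesenchymal replicate 2 (adjusted p of 0.0519, 0.0572 and 0.0563).

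Wwtr1 (ENSMUSG00000027803, chr3:57455649-57575910, minus strand) was read at 18.2, 27.8 and 21.6 FPKM in mesenchymal controls and at 28.3, 24.6, 26.3 and 20.02 FPKM in mesenchymal mutants. Its non-mesenchymal values were 6.37, 10.2 and 9.47 FPKM in controls and 8.57, 11.3, 12.4 and 10.99 FPKM in mutants. The fractions were again separate in every library, with a 2.60-fold difference of means in controls (log2 1.29, SE 0.25, adjusted p = 0.0154) and 2.30-fold in mutants (1.13, SE 0.17, adjusted p = 0.00153). The ratio of Yap1 to Wwtr1 was 1.27 ± 0.28 (SD, n = 3) in mesenchymal and 1.46 ± 0.21 (n = 3) in non-mesenchymal controls, which overlapped (exact permutation test, two-sided, p = 0.5).

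Among the TEAD genes, Tead1 (ENSMUSG00000055320, chr7:112679318-112906807, plus strand) was the most abundant in mesenchymal cells. It stood at 53.4, 64.7 and 58.7 FPKM in mesenchymal controls and 51.8, 68.1, 46.8 and 60.4 FPKM in mesenchymal mutants. In non-mesenchymal cells it stood at 20.9, 30.6 and 23.7 FPKM in controls and 27.7, 34.2, 32.5 and 28.5 FPKM in mutants. No library of one fraction reached the other, and the means differed 2.35-fold in controls (log2 1.21, SE 0.20, adjusted p = 0.00759) and 1.85-fold in mutants (0.86, SE 0.16, adjusted p = 0.00468).

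Tead3 (ENSMUSG00000002249, chr17:28331671-28350817, minus strand) had the largest difference of the family. Its mesenchymal values were 26.3, 9.49 and 18.9 FPKM in controls and 22.0, 33.9, 18.9 and 15.1 FPKM in mutants. The non-mesenchymal values were 4.09, 6.19 and 3.43 FPKM in controls and 8.10, 12.3, 2.00 and 5.78 FPKM in mutants. Within each genotype the fractions did not overlap, although Tead3 also scattered more between replicates than Tead1, with a coefficient of variation of 46.2% against 9.59% in mesenchymal controls. The log2 difference was 1.71 (SE 0.40, adjusted p = 0.0295) in controls and 1.68 (SE 0.46, adjusted p = 0.0267) in mutants. In controls the call was lost in 5 of the 6 fits without 1 library (all but the one without mesenchymal replicate 2), with adjusted p up to 0.0918. It was also lost with replicate number as a block (adjusted p = 0.0906). In mutants it was lost without mesenchymal replicate 1, 2 or 3 or non-mesenchymal replicate 4, with adjusted p up to 0.0684.

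Tead2 (ENSMUSG00000030796, chr7:45215753-45233644, plus strand) and Tead4 (ENSMUSG00000030353, chr6:128224288-128300823, minus strand) did not pass in either set. Tead2 was 25.0, 30.6 and 35.0 FPKM in mesenchymal and 19.6, 27.9 and 25.8 FPKM in non-mesenchymal controls, which overlapped (log2 0.30, 95% interval -0.23 to 0.82, adjusted p = 0.396). In mutants it was 31.7, 41.9, 24.8 and 51.2 FPKM against 13.8, 18.5, 26.01 and 25.7 FPKM, with 1 mesenchymal library inside the non-mesenchymal range (log2 0.80, SE 0.28, adjusted p = 0.071). That difference passed with median-ratio scaling (adjusted p = 0.0474), among protein-coding genes alone (0.0406), with all 14 libraries in 1 fit (0.0302) and without mesenchymal mutant 3 (0.0409). Tead4 was the least abundant member of the family, at 0.339 to 3.20 FPKM over the 14 H19DMD libraries, with log2 differences of 0.33 (95% interval -0.84 to 1.51) in controls and 0.06 (-0.83 to 0.95) in mutants.

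Summed over the 4 genes, TEAD expression was 108.9 ± 6.0 FPKM (SD, n = 3) in mesenchymal and 55.0 ± 9.99 (n = 3) in non-mesenchymal controls. In mutants it was 118 ± 22.7 and 60.1 ± 7.1 FPKM (n = 4 each). The sums did not overlap in either set (exact permutation tests, p = 0.1 and 0.0286, the smallest that 3 against 3 and 4 against 4 libraries allow, and adjusted p = 0.409 and 0.321 over 45 such tests). Tead1 made up 50.6 to 61.4% of the sum in mesenchymal controls and 43.5 to 47.0% in non-mesenchymal controls, and Tead2 23.6 to 30.2% and 42.8 to 47.3%. These shares were thus separate in controls (exact p = 0.1 for each), but in mutants both shares overlapped between fractions (exact p = 0.171 and 0.543).

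**Figure D2:**
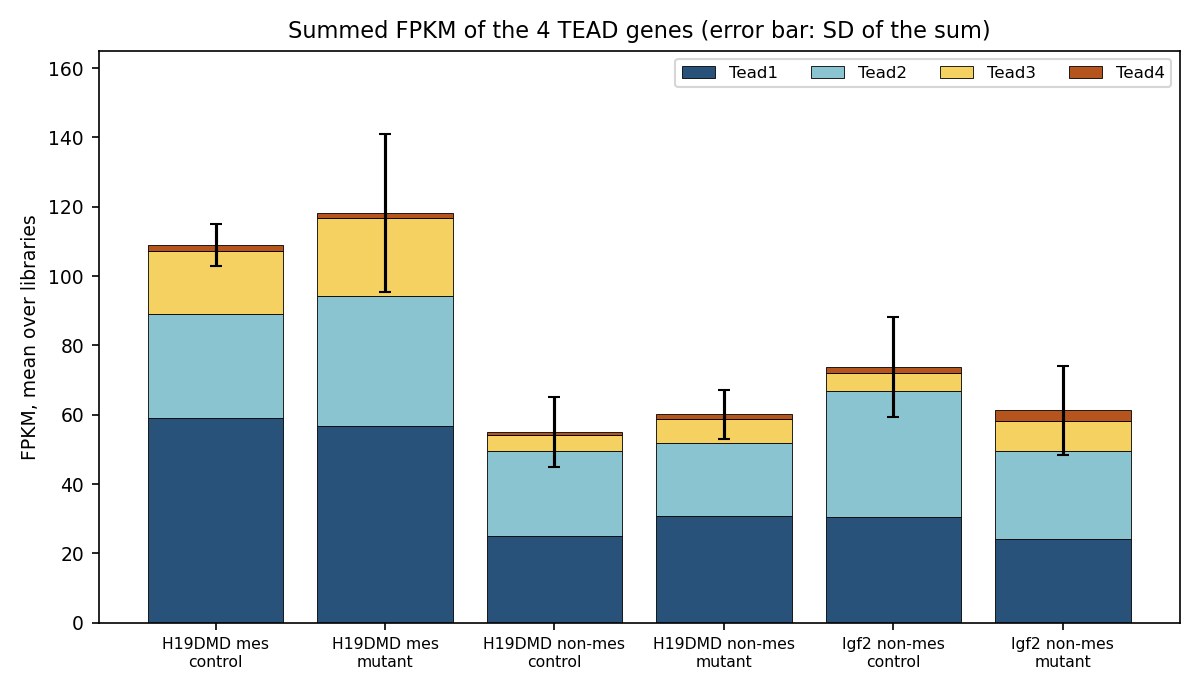
Mean FPKM of Tead1 to Tead4 stacked by group (mes, mesenchymal; non-mes, non-mesenchymal), with error bars for the SD of the summed FPKM over libraries. The 2 mesenchymal H19DMD groups stand at 108.9 and 118 FPKM, the 2 non-mesenchymal ones at 55.0 and 60.1 FPKM, and Tead4 is a thin band in every group.

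Of the targets, Ankrd1 (ENSMUSG00000024803, chr19:36111961-36120099, minus strand), a muscle ankyrin repeat protein and a standard readout of YAP, was at or near 0 in every mesenchymal library. It was listed at 0.54, 0.179 and 0 FPKM in mesenchymal controls and at 0, 0, 0.158 and 0 FPKM in mesenchymal mutants. Non-mesenchymal cells had 2.68, 4.63 and 3.35 FPKM in controls and 5.42, 9.74, 8.29 and 11.3 FPKM in mutants. The fractions did not overlap in either set, and the log2(FPKM + 1) difference was -1.88 (SE 0.32) in controls and -3.18 (SE 0.25) in mutants, given as a description because the gene passed the filter only where it is high. An exact 0 in these tables can also be a failed estimate, so no fold is given.

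Cyr61 (ENSMUSG00000028195, chr3:145646976-145649981, minus strand), a secreted matrix-associated protein, was the most abundant of the 10 genes in every group. Mesenchymal controls had 122, 199 and 247 FPKM and non-mesenchymal controls 236, 465 and 425 FPKM, which overlapped by 1 library (log2 -0.98, SE 0.38, adjusted p = 0.126). This difference passed with all 14 libraries in 1 fit (adjusted p = 0.0435). In mutants the values were 201, 199, 129 and 153 FPKM against 415, 631, 437 and 641 FPKM. These were separate, and Cyr61 was 3.11-fold lower in mesenchymal mutants (log2 -1.63, SE 0.22, adjusted p = 0.000893).

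Ctgf (ENSMUSG00000019997, chr10:24595442-24598683, plus strand), the connective tissue growth factor, scattered widely, with a coefficient of variation of 68.1% in mesenchymal and 58.8% in non-mesenchymal controls. Mesenchymal controls had 2.28, 7.35 and 12.2 FPKM and non-mesenchymal controls 3.92, 15.8 and 10.6 FPKM (log2 -0.47, 95% interval -2.10 to 1.16, adjusted p = 0.662). In mutants it was 16.3, 4.11, 3.93 and 7.27 FPKM against 20.2, 17.6, 14.2 and 23.2 FPKM, so that 1 mesenchymal library lay inside the non-mesenchymal range. The mean was 2.38-fold lower in mesenchymal mutants (log2 -1.33, SE 0.40, adjusted p = 0.039). That call was lost in 7 of 8 fits without 1 library (all but the one without mesenchymal replicate 1, adjusted p up to 0.0989), without a filter on low values (0.051) and with all 14 libraries in 1 fit (0.067). Of the 2861 exonic bases of Ctgf, 665 overlap Gm15270 on the opposite strand, which was at 0 to 4.78 FPKM, and the use of strand is not given in the sources used here. Yap1 (116 of 9257 bases, with Gm20416) and Tead2 (13 of 4788 bases, with Cd37) have smaller overlaps of the same kind. Gm20416 was at 0 to 14.7 FPKM in the H19DMD model and 0 to 3.05 FPKM in the Igf2 model. Cd37 was at 0 to 76.3 FPKM in the H19DMD model and 53.9 to 210 FPKM in the Igf2 model.

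Amotl2 (ENSMUSG00000032531, chr9:102716672-102733418, plus strand), an angiomotin family protein that binds YAP and is itself a target, overlapped between fractions in controls. It had 10.4, 11.5 and 13.3 FPKM in mesenchymal and 9.73, 10.1 and 12.03 FPKM in non-mesenchymal controls (log2 0.13, 95% interval -0.32 to 0.58). In mutants it had 12.5, 7.59, 5.42 and 9.83 FPKM against 6.90, 19.5, 19.3 and 19.7 FPKM, where 3 non-mesenchymal libraries stood high and 1 low (log2 -0.77, SE 0.38, adjusted p = 0.172). Without that low library, non-mesenchymal mutant replicate 1, the difference was -1.11 and passed (adjusted p = 0.0228).

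**Figure D3:**
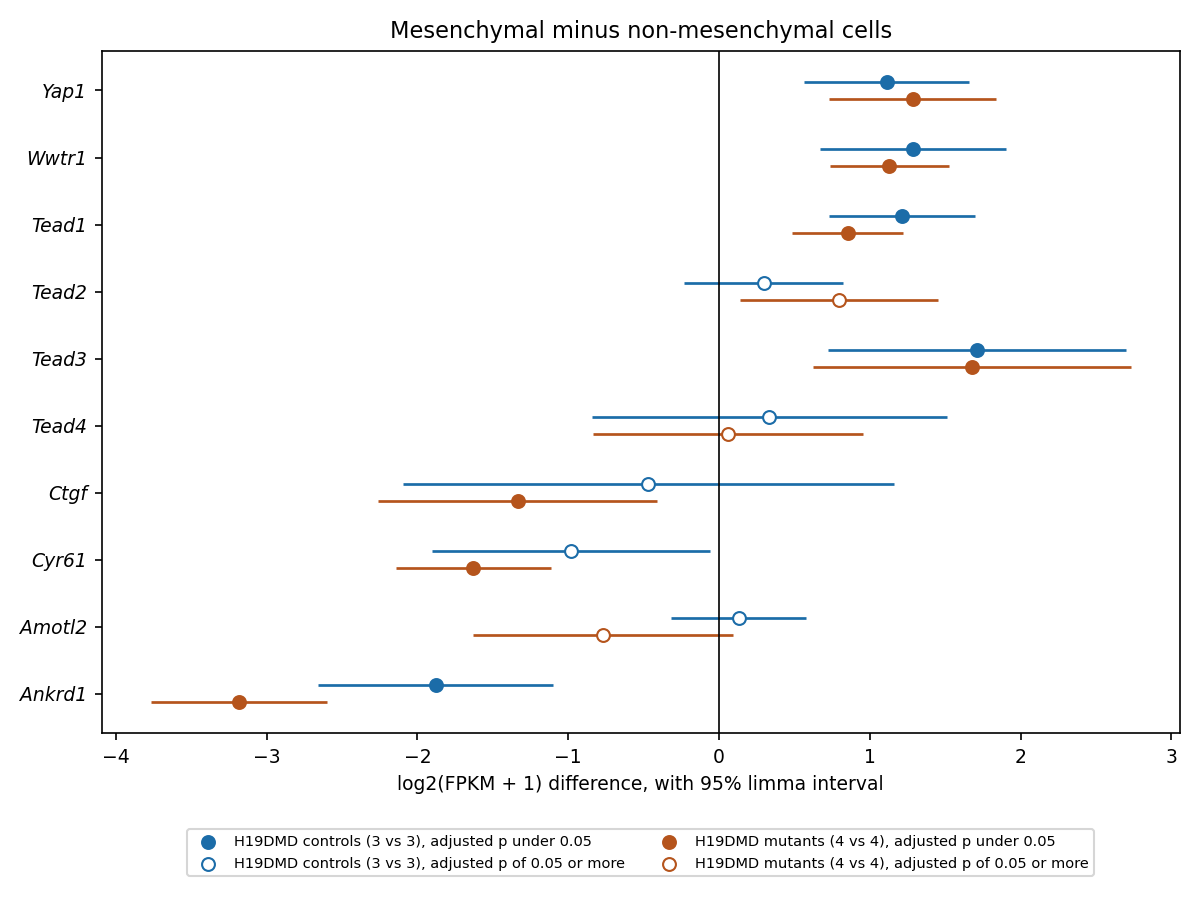
Mesenchymal minus non-mesenchymal difference of log2(FPKM + 1) for each gene, with limma 95% intervals, in H19DMD controls (3 against 3 libraries) and mutants (4 against 4); filled points passed an adjusted p of 0.05. Yap1, Wwtr1, Tead1 and Tead3 lie right of 0 in both sets, and Ankrd1 lies left of 0 at -1.88 and -3.18.

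For Cyr61, the most abundant target, the level was also set against the co-activators within a library, which restates the differences above as 1 value. The ratio of Cyr61 to the sum of Yap1 and Wwtr1 was 2.88 to 4.54 in mesenchymal and 14.6 to 20.6 in non-mesenchymal controls. In mutants it was 2.47 to 3.62 and 14.2 to 25.9. The ranges were separate in both sets. The 4 non-mesenchymal controls and 3 mutants of the Igf2 model, in their own table, had ratios of 9.80 to 28.0 and 12.6 to 22.3, which overlap those of the H19DMD non-mesenchymal cells and reach below them and, in controls, above them.

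The other genes of the pathway did not share 1 direction. As a background for these lists, 12.4% of all genes tested were higher and 10.3% lower in mesenchymal controls, with a median of 0.08, and 13.5% were higher and 15.1% lower in mutants, with a median of -0.03. Of 16 Hippo core kinases and scaffolds, 4 were higher and 2 lower in mesenchymal controls, with a list median of 0.35, and 5 were higher and 2 lower in mutants, with a median of 0.24. The 2 lower genes are thus near the share among all genes. A gene under 1 FPKM on average in one fraction could pass the filter only through the other. This favours a difference but does not force a call. Tead4, at 0.922 FPKM in non-mesenchymal and 1.57 FPKM in mesenchymal controls, was such a gene and did not pass (limma, adjusted p = 0.668). Genes of this kind are among all genes, among the marker lists and, where named, in the lists of this pathway. They are given as values. The higher genes included the kinases Lats2 (28.6 ± 5.7 against 9.60 ± 2.4 FPKM in controls, log2 1.49, adjusted p = 0.00897) and Stk3 (28.9 ± 5.5 against 12.8 ± 4.5 FPKM, log2 1.15, adjusted p = 0.0366), and Frmd6, an upstream scaffold (log2 1.51). Lower genes were Stk4, the other MST kinase (13.7 ± 2.3 against 38.8 ± 6.0 FPKM, log2 -1.44, adjusted p = 0.00445), and Wwc1, the scaffold KIBRA (1.79 ± 0.34 against 24.0 ± 5.4 FPKM, log2 -3.15, adjusted p = 0.000489; SD, n = 3 in each group). The 2 MST kinase genes thus lay on opposite sides, and they did so in mutants as well (Stk3 1.35, adjusted p = 0.00168; Stk4 -0.79, adjusted p = 0.0441).

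Of 20 junction and polarity regulators, 14 were tested, with 5 higher and 2 lower in mesenchymal controls (median 0.36, all genes 0.08) and 3 higher and 4 lower in mutants (median -0.21, all genes -0.03), beside 12.4% higher and 10.3% lower of all genes in controls and 13.5% and 15.1% in mutants. These counts hold Dchs1 among the higher and Crb3 among the lower genes of both sets, which passed the filter only through the fraction where they are high and are no support. The atypical cadherin Fat4 was higher, at 63.6 ± 6.7 against 3.59 ± 0.77 FPKM in controls (log2 3.83, adjusted p = 0.000157), and Dchs1, which encodes its ligand, was read at 8.97 ± 0.52 against 0.735 ± 0.12 FPKM. The epithelial polarity gene Crb3 was listed at 0 in all 7 mesenchymal libraries and at 4.32 to 10.3 FPKM in non-mesenchymal controls. Of the 4 VGLL genes, whose products compete with YAP and TAZ for TEAD, Vgll3 was read at 4.07 ± 1.3 FPKM in mesenchymal and 0.405 ± 0.22 FPKM in non-mesenchymal controls, and it too passed the filter only through the mesenchymal group. Vgll4 was measured at 13.6 ± 4.0 and 8.85 ± 2.4 FPKM and did not pass (adjusted p = 0.246), and Vgll2 was listed at 0 throughout this model.

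Other genes known as YAP and TAZ targets were called in both directions, more of them higher in mesenchymal cells. Of 20 listed, 19 were tested, 10 were higher and 1 (F3, tissue factor) lower in mesenchymal controls (12.4% and 10.3% of all genes), with a median of 1.17 (all genes 0.08). In mutants 10 were higher and 5 lower (Nuak2, Edn1, F3, Fjx1 and Dock5; 13.5% and 15.1% of all genes), with a median of 0.94 (all genes -0.03). Of these, 1 of the higher genes in controls, and Edn1 in mutants, passed the filter only through the fraction where they are high. The 2 largest differences in controls were those of Ccdc80 (96.7 ± 12.9 against 2.09 ± 1.4 FPKM in controls, log2 5.07, adjusted p = 0.000374) and Igfbp3, an IGF binding protein (80.0 ± 6.6 against 2.06 ± 0.36 FPKM, log2 4.73; SD, n = 3 in each group). Several listed genes, such as Ccdc80, Igfbp3 and Axl, are matrix or mesenchymal genes in their own right.

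**Figure D4:**
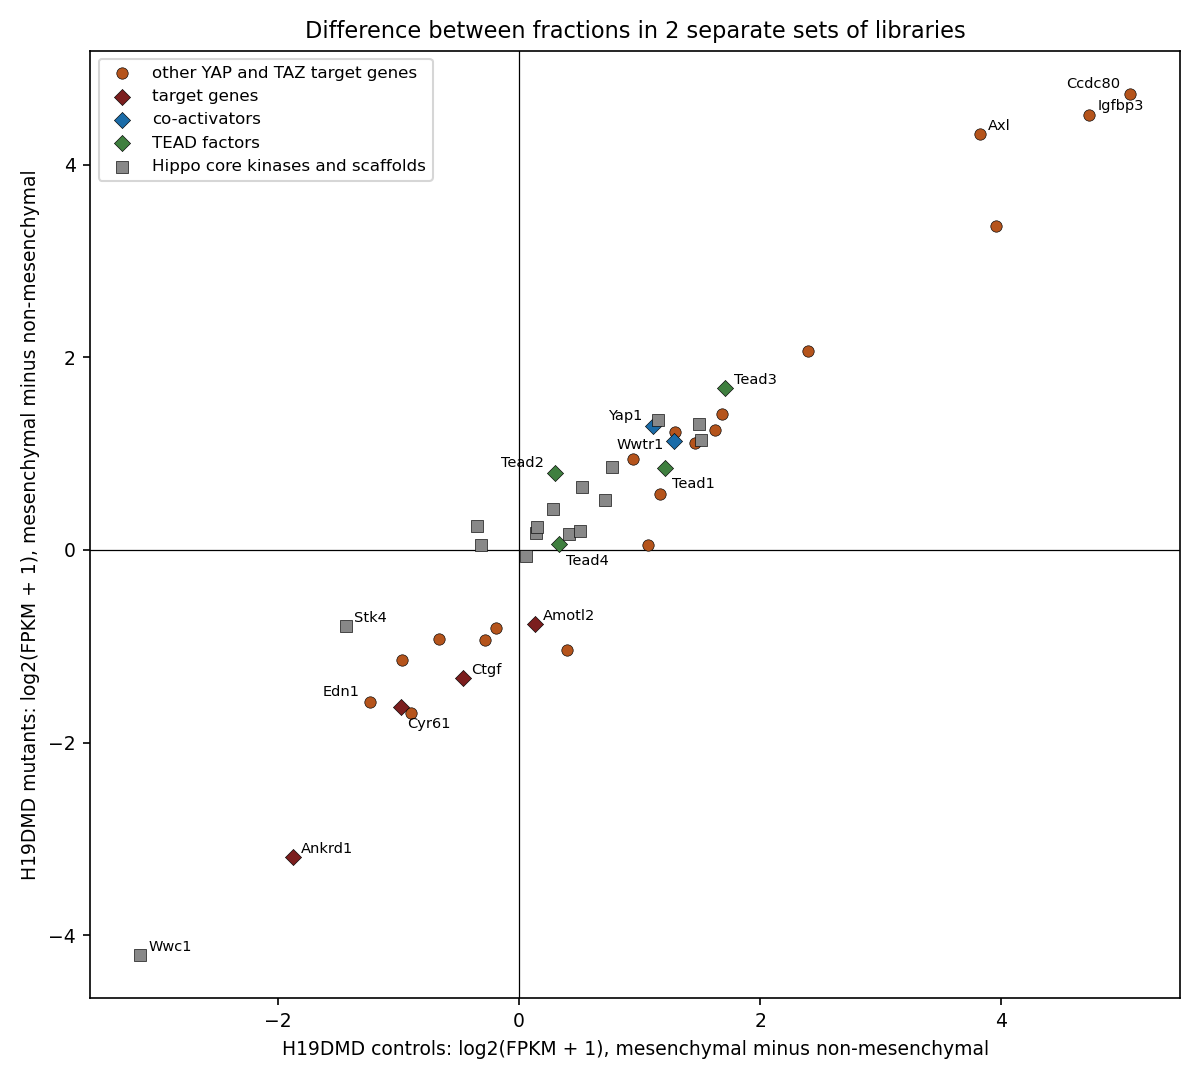
Mesenchymal minus non-mesenchymal difference of log2(FPKM + 1) in H19DMD controls (x axis) and in H19DMD mutants (y axis), for the 10 genes (diamonds), other YAP and TAZ targets (circles) and Hippo core genes (squares); the 2 axes use separate libraries. Ankrd1, Cyr61 and Ctgf lie at the lower left with Edn1, while Ccdc80, Igfbp3 and Axl lie at the upper right.

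Markers of several cell types moved with these differences. Smooth muscle and pericyte markers were higher in mesenchymal cells for 9 of 9 in controls (sums of 669 to 1194 against 23.9 to 28.0 FPKM) and 8 of 9 in mutants (223 to 1073 against 24.0 to 45.8 FPKM), with none at 0 in a whole group. Endothelial markers leaned to the mesenchymal fraction, with 9 of 9 having a positive difference and 3 of 9 passing in controls and 4 of 9 in mutants. Their sums were 116 to 150 and 105 to 197 FPKM in mesenchymal controls and mutants, 22.9 to 67.8 and 40.4 to 67.1 FPKM in the non-mesenchymal groups, and none of the 9 was at 0 in a whole group. Ductal markers passed for 5 of 8 (controls) and 8 of 8 (mutants), all lower in mesenchymal cells, with sums of 41.2 to 86.3 and 16.1 to 40.5 FPKM against 1026 to 1618 and 1168 to 2015 FPKM, Mmp7 being at 0 in both mesenchymal groups. Acinar markers passed for 9 of 9 in both sets, all lower, with sums of 618 to 1400 and 554 to 1773 FPKM against 38930 to 103600 and 46320 to 64520 FPKM, and Ptf1a was at 0 in both mesenchymal groups and Pnlip in mesenchymal controls. Endocrine markers passed for 10 of 10 in both sets, all lower (medians -7.32 and -7.17), with sums of 74.1 to 235 and 40.8 to 136 FPKM against 19670 to 29790 and 11050 to 20320 FPKM, and Pdx1 was at 0 in mesenchymal mutants. Leukocyte markers passed for 9 of 10 in both sets, all lower (medians -4.59 and -3.42), with sums of 16.2 to 31.9 and 29.1 to 68.3 FPKM against 355 to 663 and 383 to 633 FPKM. Adgre1, Fcer1g and Cd3e were at 0 in mesenchymal controls, and Cd52, Tyrobp and Cd3e in mesenchymal mutants. Mesothelial markers were higher for 5 of 6 in both sets, and in mutants the other, Krt19, which is also in the ductal list, was lower (sums of 162 to 356 and 105 to 158 FPKM against 38.1 to 53.5 and 54.4 to 75.2 FPKM, none at 0 in a whole group). Krt19 made up most of the non-mesenchymal sums, at 43.7 ± 12.01 FPKM in controls and 63.2 ± 10.7 in mutants, where each of the other markers averaged 1.29 FPKM or less. Of the erythroid markers 4 of 6 and 5 of 6 were lower in mesenchymal cells, and of the neural and glial markers 3 of 5 and 4 of 7. The part of these cell types in the results was not tested, and in bulk samples fewer cells of a type and less RNA per cell cannot be told apart. Immediate early genes, which respond to tissue dissociation as Cyr61 and Ctgf can, summed to 2411 to 4477 FPKM with overlap between all 4 groups. Of these 10 genes, 0 passed in controls, while in mutants Zfp36 was higher and Atf3, Ier2 and Jun were lower in mesenchymal cells (4 of 10), where 22.6% and 28.6% of all genes passed in controls and mutants, and their part was not tested.

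Deletion of H19DMD left the 10 genes without a call in mesenchymal cells. Ankrd1 was under the expression filter and of the 9 genes tested 0 passed, where 0.0694% of all genes did, and 0 had an unadjusted limma p under 0.05 (4.76% of all genes). Yap1 was 34.4 ± 7.5 FPKM (SD, n = 4) in mutants and 28.0 ± 4.3 (n = 3) in controls, a log2 difference of 0.27 with a 95% interval of -0.25 to 0.79. The interval for Tead1 was -0.49 to 0.36, and that for Cyr61 was -0.80 to 0.57. Ctgf had the widest interval of the 9, -1.32 to 1.56. Within the TEAD family the share of Tead1 was 47.0 to 50.2% in mutants and 50.6 to 61.4% in controls, without overlap (exact p = 0.0286, adjusted p = 0.321 over 45 tests). In these libraries 8 of 9 smooth muscle markers (sums of 223 to 1073 FPKM in mutants and 669 to 1194 in controls) and 5 of 6 mesothelial markers (105 to 158 and 162 to 356 FPKM) had a negative difference, with none at 0 in a whole group. Endocrine markers were negative for 6 of 7 tested, ductal for 4 of 5, mesenchymal for 8 of 11 and immediate early genes for 6 of 10, while leukocyte markers were positive for 3 of 3 and endothelial for 6 of 9, and acinar markers were split 4 and 4. In none of these lists did a gene pass, and their part was not tested.

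In non-mesenchymal cells of the H19DMD model 0 of the 10 genes passed either (0.0677% of all genes did), and 9 of 10 differences were positive, with a median of 0.33 (all genes 0.05). Ctgf and Ankrd1 (2 of 10) had an unadjusted limma p under 0.05, as 5.35% of all genes did. Ankrd1 was 2.68 to 4.63 FPKM in controls and 5.42 to 11.3 FPKM in mutants, without overlap (which 5.68% of all genes showed). Its mean was 2.45-fold higher in mutants (log2 1.07, SE 0.28, unadjusted p = 0.00599, adjusted p = 0.892). Ctgf was 3.92 to 15.8 FPKM in controls and 14.2 to 23.2 FPKM in mutants, which overlapped (log2 0.98, SE 0.41, unadjusted p = 0.048, adjusted p = 0.894). The log2 differences of Cyr61 (0.53, 95% interval -0.17 to 1.23) and Amotl2 (0.48, -0.39 to 1.35) had intervals that cross 0. Without non-mesenchymal control replicate 1 the difference of Ctgf was 0.48 and that of Cyr61 0.23, and without non-mesenchymal mutant replicate 1 that of Amotl2 was 0.82. In the same libraries the 7 erythroid markers were positive for 7 of 7 (sums of 123 to 442 FPKM in controls and 154 to 1717 in mutants), the ductal markers for 8 of 8 (1026 to 1618 and 1168 to 2015 FPKM), and the immediate early genes for 9 of 10 (2411 to 3799 and 2984 to 4122 FPKM), with none at 0 in a whole group. Mesenchymal markers were positive for 7 of 8 tested (170 to 208 and 164 to 296 FPKM), with Nkx3-2 at 0 in both groups and Barx1 in controls. Endocrine markers were negative for 8 of 10 (19670 to 29790 and 11050 to 20320 FPKM) and acinar markers for 8 of 9 (38930 to 103600 and 46320 to 64520 FPKM), none at 0 in a whole group. In none of these lists did a gene pass, and their part in these values was not tested.

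In the Igf2 model, whose values come from another table, 8 of 10 differences in non-mesenchymal cells were negative, 0 passed (0.0631% of all genes did) and 0 had an unadjusted limma p under 0.05 (5.28% of all genes). The median was -0.29 (all genes -0.03). Yap1 was 9.19, 18.7, 28.5 and 21.3 FPKM in controls and 8.32, 9.79 and 18.04 FPKM in mutants, which overlapped widely (log2 -0.62, 95% interval -1.60 to 0.36). Wwtr1 stood at 11.7 to 17.7 FPKM in controls and 9.99 to 12.2 FPKM in mutants (log2 -0.27). Over the fits without 1 library Yap1 ranged from -0.93 to -0.41 and Wwtr1 from -0.34 to -0.15. Cyr61 was 623, 356, 502 and 562 FPKM in controls and 444, 394 and 380 FPKM in mutants, inside the control range (log2 -0.30, 95% interval -0.81 to 0.20). Ctgf was 75.1, 39.4, 34.3 and 38.4 FPKM against 35.9, 48.7 and 48.1 FPKM, with the first control apart from the other three (log2 -0.02, 95% interval -0.71 to 0.67). Ankrd1 was 5.07 to 16.2 FPKM in controls and 4.77 to 10.8 FPKM in mutants, and Amotl2 14.7 to 32.9 and 14.4 to 21 FPKM. Among the TEAD genes, Tead1 stood at 23.4 to 35.5 FPKM in controls and 18.2 to 27.3 FPKM in mutants, Tead2 at 29.9 to 51.6 and 17.5 to 37.7 FPKM, Tead3 at 3.02 to 6.75 and 2.59 to 18.1 FPKM, and Tead4 at 0.468 to 3.998 and 1.95 to 3.82 FPKM. Groups that do not overlap were found for 0 of 10 genes (6.02% of all genes).

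**Figure D5:**
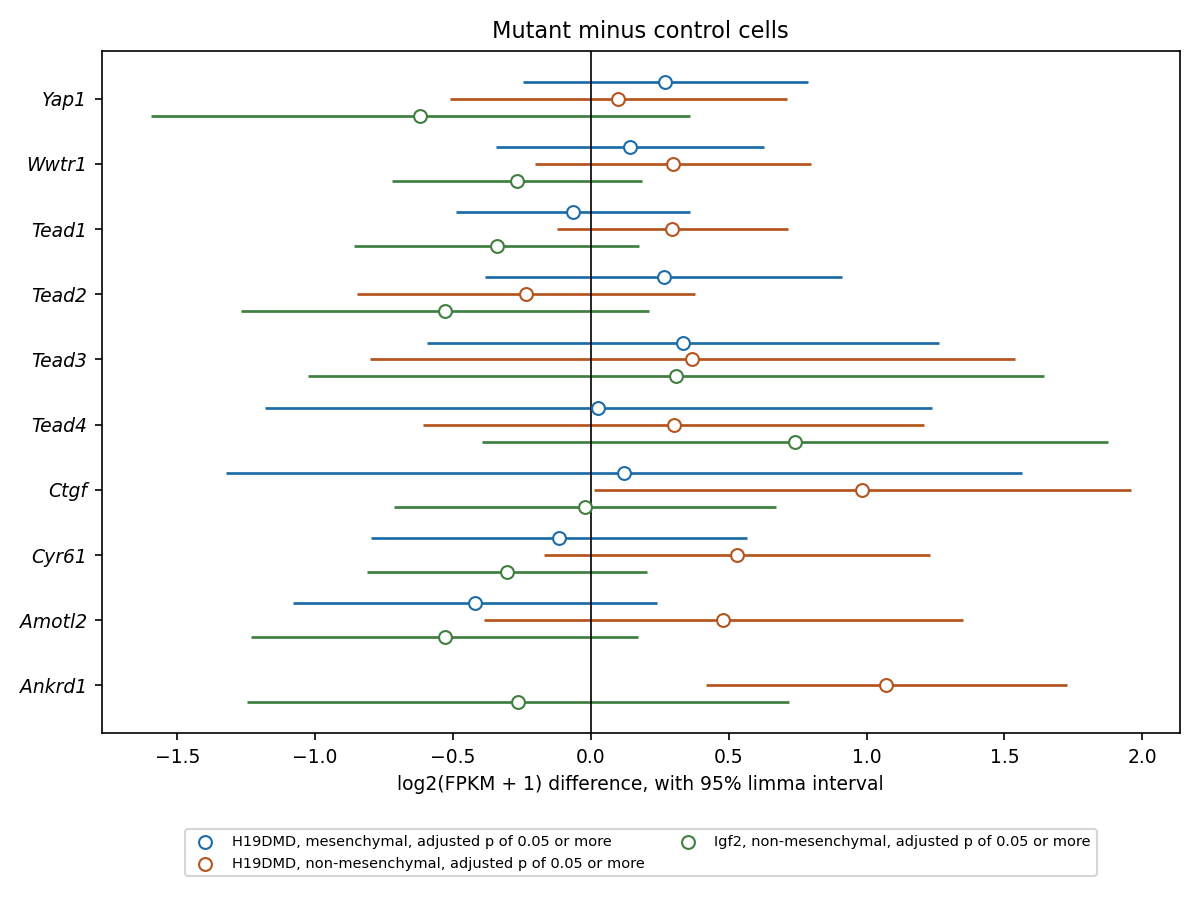
Mutant minus control difference of log2(FPKM + 1) for each gene with limma 95% intervals, in mesenchymal and non-mesenchymal cells of the H19DMD model and in non-mesenchymal cells of the Igf2 model; open points had an adjusted p of 0.05 or more, and Ankrd1 was not tested in mesenchymal cells. All points are open, and only the intervals of Ctgf and Ankrd1 in non-mesenchymal H19DMD cells lie clear of 0.

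Acinar markers moved with the groups of the Igf2 model, with sums of 29070 to 42080 FPKM in controls and 85470 to 97540 FPKM in mutants, which do not overlap. Of the 10 acinar markers, 9 had a positive difference, 0 passed, and none was at 0 in a whole group. Leukocyte markers were positive for 10 of 10 (sums of 609 to 892 and 840 to 1204 FPKM) and erythroid markers negative for 7 of 7 (727 to 4174 and 602 to 1774 FPKM), with 0 passing and none at 0 in a whole group. Ductal markers were negative for 7 of 9, mesenchymal for 7 of 9 and neural and glial for 7 of 8, and endocrine markers were positive for 7 of 10, again with 0 passing. Their part in the values of the 10 genes was not tested.

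Levels of Ctgf in non-mesenchymal cells, 34.3 to 75.1 FPKM in the Igf2 table, exceeded the 3.92 to 23.2 FPKM of the H19DMD table, and the ratio of Cyr61 to Ctgf was 7.90 to 14.7 in the former and 20.5 to 60.2 in the latter. Since library name prefix, model and table are the same split, these levels cannot be told apart from it and were not tested. The other 3 targets overlapped between the tables.

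The interaction, which asks whether the mutant effect of the H19DMD model differed between fractions, passed for 0 of 10 genes (0.0117% of all genes did), and 1 of 10 had an unadjusted limma p under 0.05 (6.35% of all genes). A negative value is a smaller or more negative mutant effect in mesenchymal cells, and the median of all genes was -0.11. Amotl2 had -0.90 (SE 0.48), Ctgf -0.86 (SE 0.78) and Cyr61 -0.65 (SE 0.43). Over the fits without 1 library Ctgf ranged from -1.42 (without mesenchymal control replicate 1) to -0.36, and Cyr61 from -0.93 to -0.34, both highest without non-mesenchymal control replicate 1. Without mesenchymal control replicate 3 they were -0.42 and -0.43. The 1 gene was Ankrd1, which is near 0 in mesenchymal cells and was tested only through its non-mesenchymal level, so that its value of -1.31 largely repeats the difference of 1.07 in non-mesenchymal cells and is no separate result. The all-gene median moved to -0.0048 with median-ratio scaling, and in the fraction contrast of controls the all-gene median moved from 0.08 to -0.03 while the same 5 genes passed. Of the Hippo, junction, VGLL and other target genes, 0 of 50 passed in mesenchymal H19DMD cells, 0 of 47 in non-mesenchymal H19DMD cells, 0 of 49 in the Igf2 model and 0 of 51 in the interaction (limma), where 1, 3, 4 and 7 had an unadjusted p under 0.05. Among all genes that share was 4.76%, 5.35%, 5.28% and 6.35%, so the first 3 of these counts lie near or below the background. Marker lists also leaned in the interaction. Smooth muscle was negative for 9 of 9 (median -0.95), mesothelial for 5 of 6 (-0.91) and mesenchymal for 9 of 11 (-0.44). Erythroid was negative for 6 of 6 (-1.36), ductal for 7 of 8 (-0.48) and immediate early for 9 of 10 (-0.19). Acinar and endothelial were positive for 6 of 9 each, leukocyte for 6 of 10 and neural and glial for 4 of 7. Endocrine was split 5 and 5. None of these genes passed, and their part was not tested.

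Across the 14 H19DMD libraries, the protein-coding genes whose profiles lay closest to those of 5 of the 10 genes were found by the root mean square (RMS) difference of centred log2(FPKM + 1) values among 13285 genes. All 14 libraries share the split into fractions, so likeness largely follows that split, and it is given as a description. For Ctgf the nearest were Tmx2 (0.49), Cyr61 (0.52) and Fdx1 (0.52), where the spread of Ctgf around its own mean was 0.89. Cyr61 was closest to Fbxo21 (0.20), Ano9 (0.24) and Hax1 (0.25), and Ankrd1 to Cyb561 (0.20), Osgin1 (0.28) and Arhgef38 (0.31). Yap1 was closest to Dip2c (0.19), Bysl (0.20) and Heatr5a (0.24), and Wwtr1 to D0H4S114 (0.15), Syn3 (0.19) and Tpm4 (0.19). Of these 15 neighbours only Cyr61 was itself 1 of the 10 genes.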

How the data were processed

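RNA was amplified from 2 ng per sample with the Ovation RNA-seq V2 kit and read as 50-base single reads on an Illumina sequencer, per the labels' protocols. The authors deposited FPKM values in 1 table for each model, with the unit given per the file headers. The submitters' processing notes name TopHat2 2.0.8, Cufflinks 2.2.1 and GRCm38, with no role or order. The annotation and the use of strand are not given in the sources used here. Of the 38283 identifiers in a table, 36425 are in GENCODE M21, which gave biotypes and exon overlaps.

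The genes and lists were chosen with earlier results of these data known. Linear models of log2(FPKM + 1), a scale that understates changes of low genes, were fitted in limma (3.58.1, under R 4.3.3) to the groups compared. Only genes averaging 1 FPKM or more there were tested, two-sided, with trended variances and Benjamini-Hochberg adjustment across all of them at 0.05. Exact permutation tests of the 10 genes, which cannot go below 0.1 with 3 against 3 libraries or 0.0286 with 4 against 3 or 4, were run beside each comparison except the interaction, and none of the 50 passed after adjustment (lowest adjusted p = 0.238). All 10 genes were named, and of each Hippo or target list up to 3 genes higher and 3 lower by fold, a few of which are not reported here. Replicate numbers were not taken as pairs, and whether same-numbered libraries share an animal is not known. Alternatives changed the scaling, pseudocount, filter, variance trend, gene set, replicate block, libraries in the fit and each library in turn. The fits were also run on simulated data, whose outcome is not reported here. How large a change the mutant comparisons could miss is thus not given.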

Additional observations from a re-analysis of the deposited data

Results flagged for a closer look

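In groups of 4 libraries, 30 pairs of gene and group were checked for a library far from the other three, and 4 were found. Chance alone gives such a library in about 1 in 20 groups. Tead2 was 51.6 FPKM in Igf2 model control replicate 2 and 29.9 to 32.9 FPKM in the other controls. Ctgf was 75.1 FPKM in Igf2 model control replicate 1 and 34.3 to 39.4 FPKM in the others. Amotl2 was 6.90 FPKM in non-mesenchymal H19DMD mutant replicate 1 and 19.3 to 19.7 FPKM in the others, and the fraction contrast of Amotl2 in mutants passed without that library. Ankrd1 was listed at 0.158 FPKM in mesenchymal H19DMD mutant replicate 3 and at 0 in the others, a level at which the distance says little.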

How the results depend on the processing

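Of the 10 genes, 5 passed in controls and 3 to 4 in the fits without 1 library, with Tead3 lost in 5 and Yap1 in 3 of the 6 fits, and both lost without mesenchymal replicate 3 or non-mesenchymal replicate 2. In mutants 7 passed, and 5 to 7 in such fits. Under the other alternatives 4 to 6 passed in controls and 6 to 8 in mutants. A filter at 5 FPKM leaves Ankrd1 untested. In the 3 mutant comparisons and the interaction 0 passed under every alternative run, with a lowest adjusted p of 0.365 (limma). None of the 12 called differences changed sign. Of 925 alternatives for single genes, 35 reversed a difference, and none of those differences was called. Median-ratio scaling turned Tead1 in mesenchymal H19DMD cells to 0.015, Ctgf in the Igf2 model to 0.023 and Tead3 in the interaction to 0.088, all near 0 to begin with, and the cause was not tested. Leaving out 1 library, which leaves fewer samples, turned the sign of 14 differences. These ranged from -0.97 to 0.090 for Ctgf between fractions in controls and from -0.15 to 0.34 for Tead4 between fractions in mutants. In mesenchymal H19DMD cells the ranges were -0.15 to 0.023 for Tead1, -0.051 to 0.64 for Tead3, -0.24 to 0.45 for Tead4, -0.44 to 0.56 for Ctgf and -0.40 to 0.10 for Cyr61, and in non-mesenchymal ones -0.054 to 0.26 for Yap1. In the Igf2 model they were -0.37 to 0.84 for Tead3, -0.14 to 0.23 for Ctgf and -0.55 to 0.066 for Ankrd1, and in the interaction -0.29 to 0.028 for Wwtr1, -0.45 to 0.27 for Tead3 and -0.54 to 0.15 for Tead4. Same-numbered mesenchymal and non-mesenchymal libraries had deviations correlated at 0.00758 to 0.0679, so the numbers were not taken as pairs. All of these correlations were positive, and 5 of 7 libraries correlated best with their own number. They do not show whether same-numbered libraries share an animal. With a replicate block the calls over all genes went from 3785 to 2660 in controls and from 4802 to 4141 in mutants, and 5 and 7 of the 10 genes passed, with Tead3 (adjusted p = 0.0906) replaced by Cyr61 (0.0477) in controls. With the block, 0 of the 10 genes passed in the mutant comparisons and the interaction. Depth in reads is unknown, so no floor can be given for values near 0, such as those of Ankrd1 in mesenchymal cells.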

Other observations

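Lats1, the kinase that phosphorylates YAP together with Lats2, was chosen after its values were seen. It was 22.6 ± 2.7 FPKM (SD, n = 3) in mesenchymal controls and 29.9 ± 2.0 (n = 4) in mesenchymal mutants of the H19DMD model, a log2 difference of 0.39 (limma, unadjusted p = 0.0367, adjusted p = 0.927). In non-mesenchymal cells of the Igf2 model it was 28.5 ± 2.2 FPKM (n = 4) in controls and 21.1 ± 1.9 (n = 3) in mutants, a difference of -0.42 (unadjusted p = 0.0248, adjusted p = 0.919). Its interaction value in the H19DMD model was 0.60 (unadjusted p = 0.00706, adjusted p = 0.755). None of the 3 passed the correction.

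Signs of the other target genes in the interaction were negative for 18 of 19, with a median of -0.35 (all genes -0.11). With median-ratio scaling 16 of 19 were negative, with a median of -0.24 (all genes -0.0048). The lean was not particular to target genes. Smooth muscle markers were negative for 9 of 9 (median -0.95), mesothelial for 5 of 6 (-0.91) and mesenchymal for 9 of 11 (-0.44). Endothelial markers were positive for 6 of 9 and leukocyte markers for 6 of 10. Their part in the lean of the target genes was not tested. In the Igf2 model 13 of 14 junction and polarity genes had a negative difference (median -0.25, all genes -0.03) and in non-mesenchymal H19DMD cells 12 of 13 had a positive one (median 0.29, all genes 0.05), with 0 passing in either and 0 and 1 with an unadjusted limma p under 0.05.

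The share of Tead2 in summed TEAD FPKM was 42.8 to 47.3% in non-mesenchymal H19DMD controls and 27.6 to 42.0% in mutants, without overlap (exact permutation test, p = 0.143, adjusted p = 0.429 over 45 tests).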
